A study of Mus musculus with 22 samples.

Results

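The comparison asked what expression of the SS18-SSX fusion adds to tumours that already lack Snf5 when both events start from the same Cre driver. It used 7 of the 22 RNA-seq libraries of the series, chosen by their titles: 4 libraries labelled as carrying both the fusion and Snf5 loss (N1, N2, N3 and N4, called combined below) and 3 libraries labelled with Snf5 loss alone (N30, N31 and N33, called Snf5-null below). The genotype field of the combined tumours reads Myf5cre;SS18-SSX+/- and Snf5-/-, and their titles call the fusion allele SSM2. That of the Snf5-null tumours reads SNF5-/-, with Myf5 in the title. Both groups therefore share Snf5 loss under Myf5-driven Cre, and no library of either group is labelled with intact Snf5. The source of every library is given as mouse tumor. The strain field reads C57BL/ followed by a number that is different in each library. Age and sex are not given in the labels, and nothing in them says whether libraries of a group came from separate animals, so the p-values measure only the spread between these samples.

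Myf5 is a transcription factor of the skeletal muscle lineage, and Cre placed under its control recombines in embryonic muscle progenitors and their descendants, with some activity in a few other lineages. Snf5, also called Smarcb1, sits at the core of SWI/SNF, or BAF, the complex that moves nucleosomes, and its loss defines malignant rhabdoid tumours. SS18-SSX is the fusion oncoprotein of human synovial sarcoma: SS18 is a BAF subunit, and its SSX partner brings the altered complex to chromatin marked by Polycomb, the repressor system that keeps developmental genes silent outside their own tissue.

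The 4 combined libraries held 14834030 to 16716639 counted reads and the 3 Snf5-null libraries 16059420 to 20412531. Levels are given in CPM, the count of a gene scaled to a common library size, which does not correct for gene length and is compared only within a gene. The correlation of log2 CPM between libraries was 0.913 to 0.982 within the combined group, 0.94 to 0.986 within the Snf5-null group and 0.69 to 0.774 between the groups, over the genes tested. The Y-linked genes summed to 1.24, 379, 479 and 453 CPM in N1 to N4, against 1.74, 0.0514 and 1.35 CPM in N30, N31 and N33. Xist, the RNA that silences one X chromosome in females, had 1660, 262, 0.563 and 3.19 CPM in N1 to N4, against 1570, 578 and 1000 CPM in the Snf5-null libraries. Thus 3 of the 4 combined libraries expressed Y-linked genes and no Snf5-null library did, N1 alone among the combined libraries resembled the Snf5-null group in both measures, and N2 expressed both kinds of gene. A fit with a term for Y-linked expression therefore rests on N1 for the difference between the groups; it is used below as an alternative chosen after seeing the data, and 154 of the 401 called genes named or listed lost their call in it. What part the difference in Y-linked expression has in the results was not tested beyond that fit. The noncoding RNAs Rn7sk, Rpph1 and Rmrp together took 2.97, 10.5, 9.21 and 6.11% of the counts in N1 to N4, against 3.09, 3.64 and 5.25% in N30, N31 and N33, and mitochondrial genes took 1.55 to 4.53%, against 1.68 to 3.21%. The part of these shares in the results was not tested.

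The targeted gene was measured first. Smarcb1 (chr10:75896769-75921617, minus strand) had 0.918, 2.24, 2.25 and 1.43 CPM in N1 to N4, against 20, 10.9 and 12.8 CPM in N30, N31 and N33. Every combined library lay below every Snf5-null library, and the log2 fold change was -3.09 ± 0.41 (SE), 8.52-fold lower in combined tumours (adjusted p = 0.000836, edgeR's quasi-likelihood test with Benjamini-Hochberg adjustment, as for all adjusted p-values below). Reads outside a deleted stretch of the gene are counted too, and reads of unrecombined cells in a bulk tumour cannot be told apart from residual transcripts of the tumour cells. Ptprc, the pan-leukocyte surface protein CD45, differed in the same direction, with 6.05, 12, 5.07 and 4.79 CPM in N1 to N4, against 479, 257 and 285 CPM in the Snf5-null libraries, and its part in the Smarcb1 difference was not tested. Ss18, the mouse gene of the fusion's BAF partner, had 130, 139, 165 and 136 CPM in N1 to N4, against 85.5, 83.8 and 81.3 CPM in N30, N31 and N33 (log2 fold change 0.77 ± 0.15, adjusted p = 0.00419; 0.0557 with the term for Y-linked expression). Whether reads of a fusion transcript are counted in that gene was not tested.

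Across the 16081 genes tested, 2847 (17.7%) were higher and 3627 (22.6%) were lower in combined tumours at an adjusted p below 0.05, together 40.3%. A log2 difference of at least 4 was reached by 614 of the genes called higher and 1002 of those called lower. The groups did not overlap in log2 CPM for 48.2% of genes, and all genes tested had a median log2 fold change of 0.06. These are the backgrounds against which each gene list below is read: a list in which about 17.7% of members were higher and 22.6% lower stands where genes in general stood. Without N31 the count of genes called higher was 1844, and with the term for Y-linked expression it was 1792 higher and 1774 lower. Because these are bulk tumours, fewer cells of a type and less RNA of a gene per cell cannot be told apart in any result below.

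**Figure D1:**
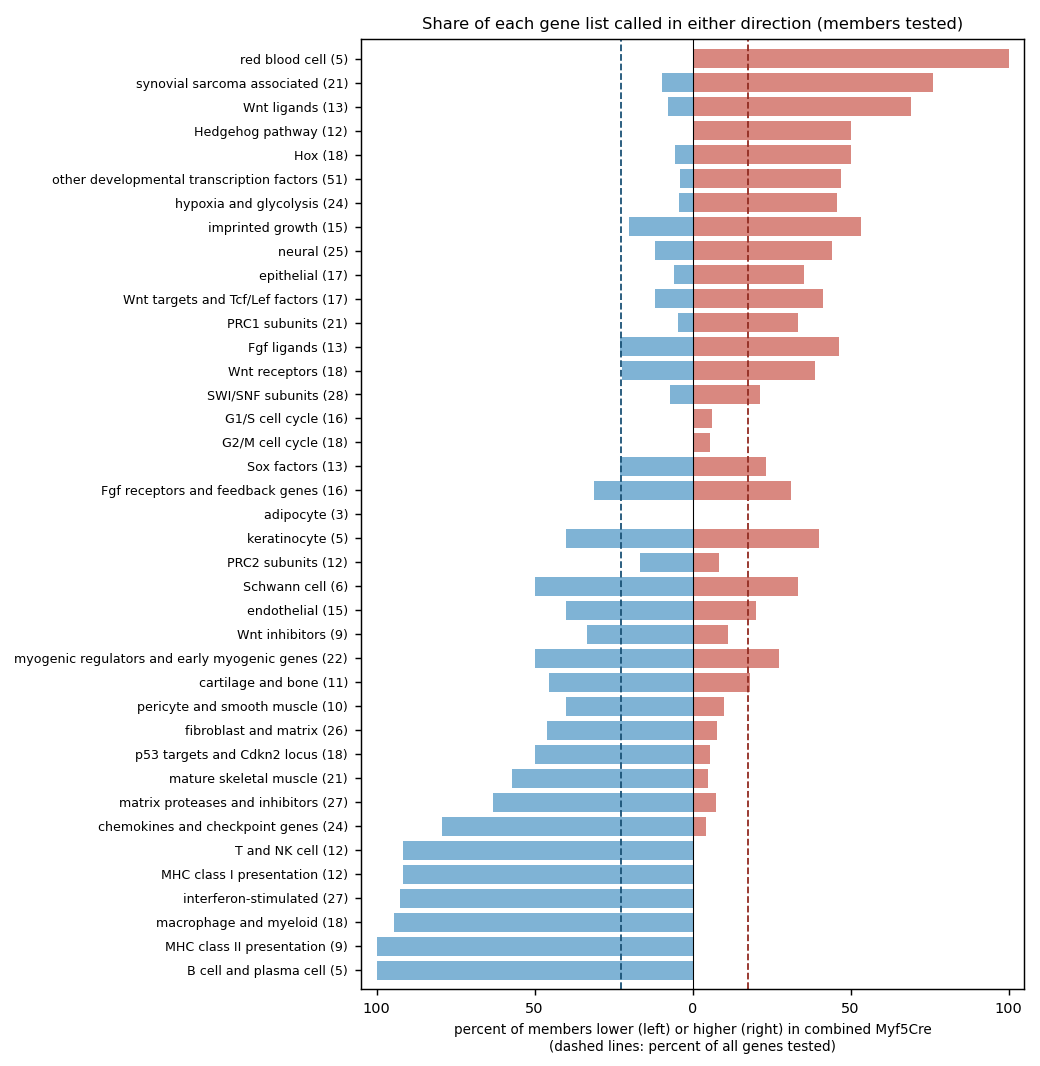
Percent of the tested members of each gene list that were lower (bars to the left) or higher (bars to the right) in the combined tumours (n = 4) relative to Snf5-null ones (n = 3), called at adjusted p below 0.05, with dashed lines at the shares over all genes tested, 22.6% lower and 17.7% higher. The immune and interferon lists lie far to the left, all 9 tested MHC class II genes included. The lists of Wnt ligands, Hox genes and synovial sarcoma associated genes lie to the right. Genes with few counts in either group could be tested only through the other group, so the shares are a description.

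The largest rises among genes of at least moderate level joined a secreted epithelial protein with neural genes. These rises, and the falls below, were taken only from called genes whose groups did not overlap, so their separation follows from the choice. Wfdc2, which encodes the secreted whey-acidic-protein family member HE4, had 352, 272, 166 and 209 CPM in N1 to N4, against 0.24, 0.0514 and 1.28 CPM in N30, N31 and N33 (log2 fold change 8.96 ± 0.85, adjusted p = 0.00018). C1ql4, a C1q-like secreted protein of synapses, had 87.2, 45.1, 130 and 121 CPM, against 0.24, 0.0514 and 0.337 CPM (8.85 ± 0.66, adjusted p = 7.24e-05). Shisa8, a member of the family of AMPA receptor auxiliary proteins, had 67.5, 30.9, 97.9 and 88 CPM, against 0.3, 0.0514 and 0.202 CPM (8.58 ± 0.67, adjusted p = 8.58e-05). These 3 genes were near 0 in every Snf5-null library and well expressed in every combined one. The 15 largest rises also included Myh13, Ddx3y, Iyd, Matn4, Lhx3, Megf6, Grin2c, Sez6, Prph, Ntm and Epha8, with log2 fold changes of 8.46 for Myh13 to 8.02 for Epha8. Sez6, a neuronal membrane protein, had 773, 421, 269 and 375 CPM, against 2.64, 0.257 and 2.16 CPM, and Prph, the intermediate filament peripherin of peripheral neurons, had 249, 200, 675 and 653 CPM, against 2.1, 0.925 and 2.02 CPM. Matn4, the matrix protein matrilin, had 255, 115, 196 and 190 CPM, against 0.901, 0.36 and 0.405 CPM (8.4 ± 0.48, adjusted p = 3.29e-05). Myh13, the myosin heavy chain of extraocular and laryngeal muscle, ranged within the combined group from 41.1 CPM in N2 to 422 CPM in N4. Ddx3y is Y-linked and followed the Y-linked expression described above, with 0.756 CPM in N1 and 141 to 192 CPM in N2 to N4. Its adjusted p was 0.00734, and 0.393 with the term for Y-linked expression.

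The largest falls were of kinase, receptor, secreted and bone-resorption genes. Prkg2, the membrane-bound cGMP-dependent protein kinase, had 0.81, 1.26, 0.211 and 0.0571 CPM in N1 to N4, against 442, 464 and 525 CPM in N30, N31 and N33 (log2 fold change -9.63 ± 0.72, adjusted p = 7.31e-05). Its neighbour on chromosome 5 Bmp3, a bone morphogenetic protein, had 4.59, 3.44, 1.69 and 1.43 CPM, against 810, 1060 and 783 CPM (-8.3 ± 0.49, adjusted p = 3.55e-05). Ptgir, the prostacyclin receptor, had 0.378, 0.402, 0.141 and 0.285 CPM, against 86.7, 243 and 163 CPM (-9.03 ± 0.49, adjusted p = 2.74e-05). All 3 genes were far above the combined libraries in each Snf5-null library. Chrna1, the acetylcholine receptor alpha subunit of the neuromuscular junction, had 0.702, 1.09, 0.563 and 0.799 CPM, against 246, 301 and 239 CPM (-8.36 ± 0.26, adjusted p = 1.36e-05). Pcsk1, a prohormone-processing protease, had 1.78, 3.79, 0.845 and 1.2 CPM, against 602, 622 and 570 CPM (-8.28 ± 0.53, adjusted p = 4.54e-05). The other 10 of the 15 largest falls were Ctsk, AI593442, Tnr, Acp5, Calcr, Met, Plxdc1, Spp1, Sytl2 and Plau, with log2 fold changes of -8.28 for Ctsk to -7.49 for Plau. Ctsk, Acp5 and Calcr encode the protease cathepsin K, the tartrate-resistant acid phosphatase and the calcitonin receptor of osteoclasts, and all were lowest in N30 among the Snf5-null libraries: Ctsk had 5.51, 11.4, 3.24 and 1.88 CPM in N1 to N4, against 122, 2010 and 3020 CPM in N30, N31 and N33. With the term for Y-linked expression these 3 missed the threshold (adjusted p = 0.052 for Ctsk, 0.06 for Acp5 and 0.0672 for Calcr). Over the other alternatives their calls held.

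**Figure D2:**
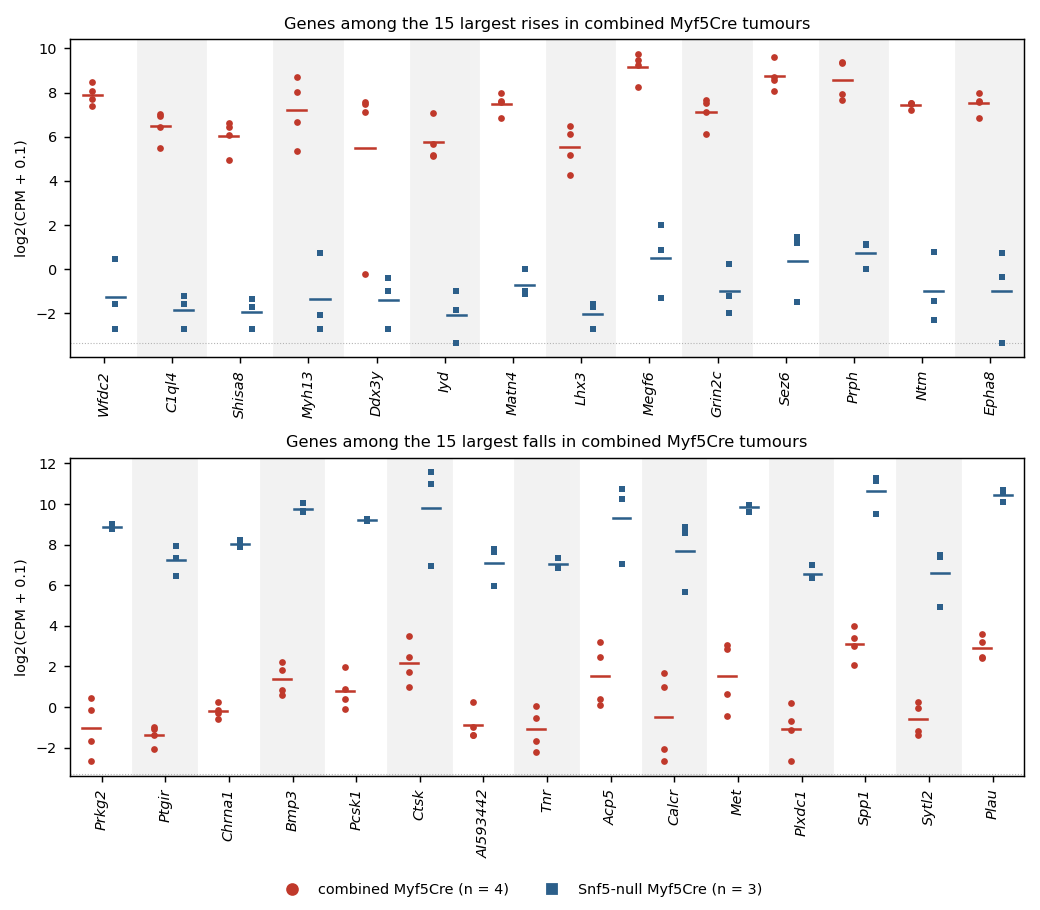
Level in each library of the genes named here from the 15 largest rises and the 15 largest falls, as log2(CPM + 0.1), with combined libraries as red circles (n = 4), Snf5-null libraries as blue squares (n = 3) and a horizontal line at each group mean. Only genes whose groups did not overlap could be chosen, so the groups are apart for every gene plotted. Ddx3y has 1 combined library, N1, at 0.756 CPM beside the Snf5-null libraries at 0.0514 to 0.661 CPM.

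Promoter sequence is shown for the 3 largest rises and the 3 largest falls that have a window in the RefSeq table, because SSX and Polycomb binding is known at promoters rich in CG dinucleotides and the letters let the 6 be compared. Each window runs 5′ to 3′ on the gene's strand, from 250 bases before to 50 after the start that RefSeq lists on GRCm38.p6, and capitals mark each CG. The windows are Wfdc2 at chr2:164562465-164562764 (plus strand), C1ql4 at chr15:99087679-99087978 (minus strand), Shisa8 at chr15:82212766-82213065 (minus strand), Ptgir at chr7:16906240-16906539 (plus strand), Chrna1 at chr2:73580289-73580588 (minus strand) and Pcsk1 at chr13:75089607-75089906 (plus strand). RefSeq lists 2 windows for Wfdc2, which lie 1 base apart, and the first is shown.
Wfdc2: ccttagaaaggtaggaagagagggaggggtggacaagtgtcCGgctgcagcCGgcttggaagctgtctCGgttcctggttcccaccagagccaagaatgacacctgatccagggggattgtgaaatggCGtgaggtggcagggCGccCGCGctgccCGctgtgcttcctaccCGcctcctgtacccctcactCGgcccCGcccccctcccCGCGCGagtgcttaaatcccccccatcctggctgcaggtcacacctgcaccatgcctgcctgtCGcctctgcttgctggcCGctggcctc
C1ql4: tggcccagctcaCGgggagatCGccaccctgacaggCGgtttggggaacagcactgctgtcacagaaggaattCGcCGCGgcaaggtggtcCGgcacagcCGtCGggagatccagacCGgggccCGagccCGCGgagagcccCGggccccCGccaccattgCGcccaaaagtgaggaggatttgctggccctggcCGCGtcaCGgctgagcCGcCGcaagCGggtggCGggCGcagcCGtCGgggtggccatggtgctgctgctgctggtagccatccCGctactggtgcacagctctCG
Shisa8: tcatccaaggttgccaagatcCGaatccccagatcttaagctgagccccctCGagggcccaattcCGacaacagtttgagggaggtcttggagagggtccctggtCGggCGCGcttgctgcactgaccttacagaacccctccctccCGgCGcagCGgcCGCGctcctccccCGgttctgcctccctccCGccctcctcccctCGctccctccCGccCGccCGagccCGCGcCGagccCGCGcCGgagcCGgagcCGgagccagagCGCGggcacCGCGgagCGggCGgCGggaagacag
Ptgir: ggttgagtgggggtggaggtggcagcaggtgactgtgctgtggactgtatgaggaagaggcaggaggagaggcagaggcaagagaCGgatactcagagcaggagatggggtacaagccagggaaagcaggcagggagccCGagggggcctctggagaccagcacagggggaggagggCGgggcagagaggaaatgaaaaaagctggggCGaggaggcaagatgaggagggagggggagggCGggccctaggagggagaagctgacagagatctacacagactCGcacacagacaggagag
Chrna1: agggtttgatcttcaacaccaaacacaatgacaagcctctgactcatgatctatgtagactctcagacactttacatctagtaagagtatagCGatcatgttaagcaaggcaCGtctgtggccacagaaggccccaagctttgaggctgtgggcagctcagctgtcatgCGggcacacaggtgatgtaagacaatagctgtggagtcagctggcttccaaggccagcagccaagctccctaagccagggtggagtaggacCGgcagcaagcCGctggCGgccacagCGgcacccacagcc
Pcsk1: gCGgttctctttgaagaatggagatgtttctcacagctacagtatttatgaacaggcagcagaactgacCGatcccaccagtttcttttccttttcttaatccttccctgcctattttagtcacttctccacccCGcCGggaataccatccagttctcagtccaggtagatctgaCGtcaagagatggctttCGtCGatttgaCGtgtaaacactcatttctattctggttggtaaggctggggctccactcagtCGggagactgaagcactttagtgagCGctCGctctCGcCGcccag
The 3 risen genes had 16 (Wfdc2), 28 (C1ql4) and 32 (Shisa8) CG in 300 bases, and the 3 fallen genes had 6 (Ptgir), 7 (Chrna1) and 13 (Pcsk1). Over all 32851 windows of the RefSeq table the median was 7 CG, with quartiles of 3 and 20, and 94.6% held at least 1. The GC content was 65.3% for Wfdc2, 70.0% for C1ql4, 71.3% for Shisa8, 62.0% for Ptgir, 54.7% for Chrna1 and 49.3% for Pcsk1, against a median of 52.7% over all windows. A comparison of promoter CG between all genes called higher and lower was void, because a window was found for only 72.8% and 74.7% of them and at least 80% was required. The 6 windows are therefore a description of these genes alone.

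Developmental transcription factors of many tissues were higher. Of 51 tested factors other than Hox and Sox, 24 were higher and 2 lower in combined tumours, with a median log2 fold change of 2.66. Tfap2c, the AP-2 gamma factor of trophoblast and neural crest, had 91.4, 88.7, 53.7 and 73.8 CPM in N1 to N4, against 0.3, 0.257 and 0.405 CPM in N30, N31 and N33 (7.89 ± 0.34, adjusted p = 1.52e-05). Zic2, a zinc-finger factor of the early neural plate that is counted with the synovial sarcoma genes below, had 47.5, 43.9, 30.5 and 37.9 CPM, against 0.24, 0.205 and 0.135 CPM (7.62 ± 0.34, adjusted p = 1.57e-05). Within both genes the libraries of a group lay close together and far from the other group. Lhx3, a LIM-homeobox factor of pituitary and motor neurons, had 36.4, 91, 19 and 69.9 CPM, against 0.24, 0.0514 and 0.202 CPM. Pax6, the paired-box factor of eye and brain, had 45.6, 11.4, 20.1 and 24.4 CPM, against 0.12, 0.0514 and 0.202 CPM. These factors belong in development to tissues as different as eye, pituitary and placenta. The hindlimb factor Pitx1 rose in all 4 combined libraries but unevenly, with 8.97, 25.4, 109 and 74.3 CPM, against 0.421, 0 and 0 CPM. Isl1, a LIM factor of motor neurons and heart, had 32.9, 9.7, 0.141 and 1.83 CPM, against 0, 0 and 0.0674 CPM, a ratio of 612 with a counting interval of 110 to 24200. Its call was lost without N30, N31 or N33 (adjusted p = 0.0552, 0.0584 and 0.0611). The 2 factors that fell were Gata6, an endoderm and heart factor, with 0.432, 1.15, 0.141 and 0.114 CPM against 1.08, 14.1 and 12.9 CPM, and Tbx4, a hindlimb T-box factor, with 1.73, 0.631, 0.0704 and 0.399 CPM against 13.5, 3.96 and 4.99 CPM. Both calls were lost with the term for Y-linked expression (adjusted p = 0.162 for Gata6 and 0.227 for Tbx4), and that of Tbx4 also without N30 (0.0565). The 25 factors not called included Otx2, Prrx1, Tbx1, Gata3 and Tfap2a. Of the 80 listed factors, 51 were high enough to be tested, and with no filter on low counts 38 were called higher. Factors near 0 in the Snf5-null libraries could be tested only through the combined group, so the count of rises is a description. The count called lower was 6 by DESeq2 and 4 without N1 or without N2.

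Hox genes mark position along the body axis. Of 18 tested, 9 were higher and 1 lower, with a median log2 fold change of 3.86. The 9 that rose among those that passed the filter were all of the HoxA cluster on chromosome 6, among them Hoxa2, Hoxa3, Hoxa4, Hoxa5, Hoxa7, Hoxa9, Hoxa10 and Hoxa11. Hoxa5 had 2.75, 4.36, 21.1 and 21.9 CPM in N1 to N4, against 0.12, 0.0514 and 0.135 CPM in N30, N31 and N33 (6.87 ± 1.09, adjusted p = 0.00181). Hoxa2 had 4.16, 5.74, 21.1 and 18 CPM, against 0.0601, 0 and 0 CPM, a ratio of 596 with a counting interval of 107 to 23600. Hoxa11 had 2.05, 2.7, 5.91 and 13 CPM and no counts in the Snf5-null libraries, at least 99.6-fold higher (adjusted p = 0.00325), a bound that sets the Snf5-null group at 3 counts over its libraries. Levels of these 3 were higher in N3 and N4 than in N1 and N2, and the 9 genes lie in 1 cluster and are not independent of each other. Exons of Hoxa11 share 35.0% of their bases with Hoxa11os on the opposite strand, and the sources used here do not say how strand was handled in counting. Hoxd13, the most distal gene of the HoxD cluster and a factor of digits and the genital tubercle, went the other way with 0.216, 0.631, 0 and 0 CPM, against 22.6, 41.1 and 30.2 CPM (-7.12 ± 0.9, adjusted p = 0.000643). The 8 not called were Hoxb3, Hoxb4, Hoxc4, Hoxc5, Hoxc6, Hoxc8, Hoxd8 and Hoxd9, and 21 of the 39 Hox genes were too low to be tested. HoxA genes near 0 in the Snf5-null libraries could be tested only through the combined group, so the count of rises is a description. With the term for Y-linked expression the calls of Hoxa4, Hoxa9 and Hoxa10 were lost (adjusted p = 0.0599, 0.054 and 0.0791). With no filter on low counts 14 Hox genes were called higher. That is more than the HoxA genes listed, so the rises in that fit were not confined to HoxA.

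**Figure D3:**
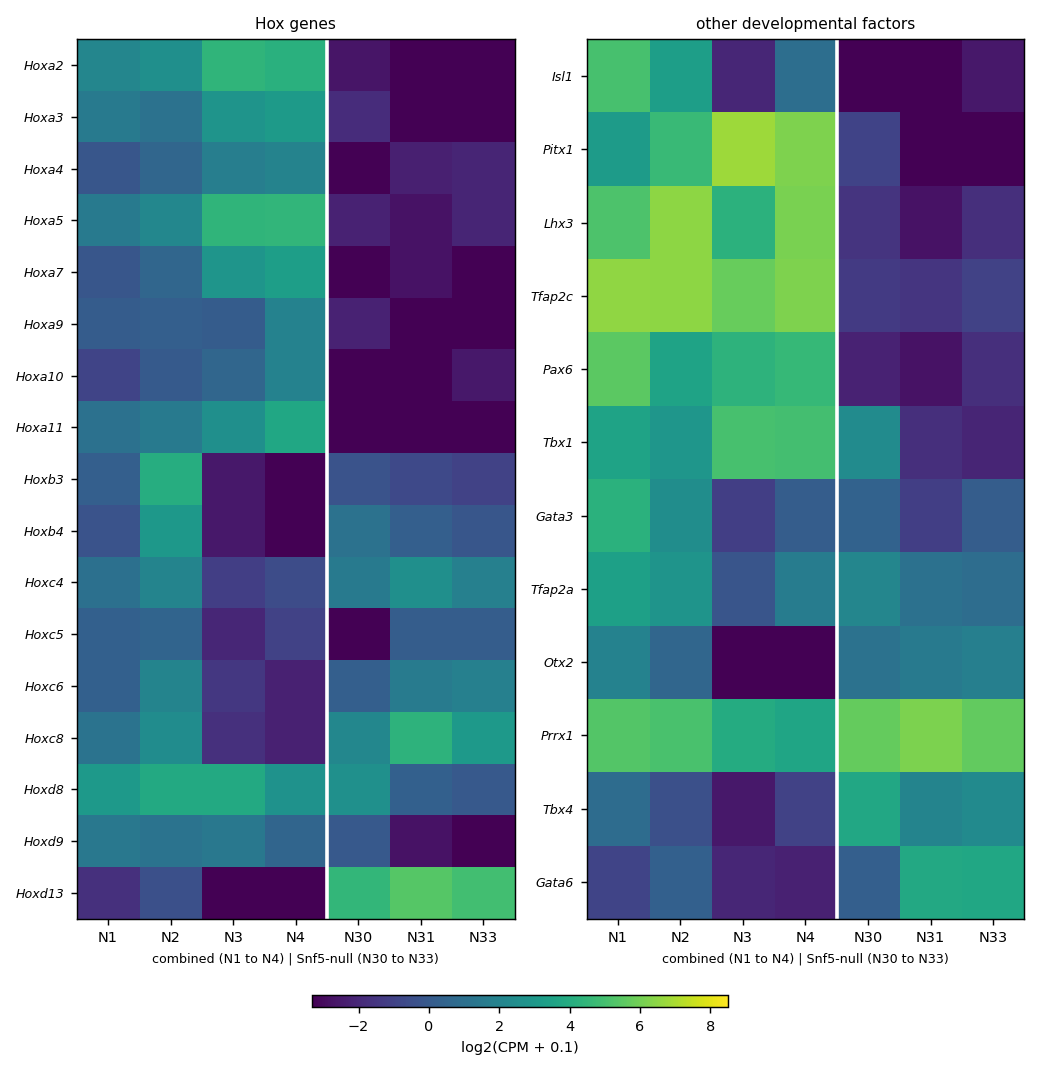
Heat map of log2(CPM + 0.1) for the Hox genes and the other developmental factors named in the text, with the combined libraries N1 to N4 as columns left of the Snf5-null libraries N30, N31 and N33. The HoxA genes are at or near 0 CPM in all 3 Snf5-null libraries and higher in the combined ones, with Hoxa2, Hoxa5 and Hoxa7 highest in N3 and N4, and Hoxd13 shows the reverse.

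Among 13 tested Sox factors, the high-mobility-group factors of stem and lineage identity, 3 were higher and 3 lower. Each is 23.1%, near the shares over all genes tested, 17.7% higher and 22.6% lower, so the list stood about where genes in general stood. Sox8, of neural crest and muscle satellite cells, had 12.4, 16, 70.1 and 64.4 CPM in N1 to N4, against 4.03, 2.11 and 3.1 CPM in N30, N31 and N33, and Sox3, of neural progenitors, had 7.67, 3.5, 0.211 and 0.571 CPM with no counts in the Snf5-null libraries. Sox5, a partner of Sox9 in cartilage, fell to 0.81, 1.09, 0.211 and 0.171 CPM, against 5.77, 7.81 and 7.15 CPM. The call of Sox3 was lost without N30 or N31 (adjusted p = 0.0518 and 0.0545), and those of Sox8 and Sox5 with the term for Y-linked expression (0.0892 and 0.0975). Sox9 itself was not called.

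Wnt ligands are secreted proteins that act through Frizzled receptors on beta-catenin and other branches. Of 13 tested, 9 were higher and 1 lower, with a median log2 fold change of 4.69. The list held 19 ligands, and those near 0 in the Snf5-null libraries could be tested only through the combined group. The count of rises is therefore a description. Wnt6 had 94, 98.7, 80.3 and 81.8 CPM in N1 to N4, against 0.901, 0.462 and 1.08 CPM in N30, N31 and N33 (6.78 ± 0.33, adjusted p = 2.09e-05). Wnt10a had 39.3, 30.7, 44.9 and 38.9 CPM, against 1.14, 1.44 and 1.55 CPM (4.8 ± 0.25, adjusted p = 2.62e-05). Wnt7b had 53, 15.6, 79.6 and 98 CPM, against 0.721, 1.44 and 1.89 CPM (5.51 ± 0.73), and Wnt5a, a ligand of the beta-catenin-independent branch, had 165, 204, 46.1 and 80.7 CPM, against 11.5, 1.49 and 1.42 CPM (4.69 ± 0.96). In all 4 ligands every combined library was above every Snf5-null library. Wnt3 had 12.2, 9.18, 1.76 and 3.77 CPM, against 0, 0 and 0.0674 CPM, a ratio of 359 with a counting interval of 64.1 to 14200. Wnt2 was the ligand that fell, with 0.216, 0.287, 0 and 0.0571 CPM, against 67.9, 7.76 and 5.8 CPM (-7.47 ± 1.19, adjusted p = 0.00189; 0.0719 with the term for Y-linked expression).

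The receptors and inhibitors of the pathway moved in both directions. Of 18 tested receptors and co-receptors, 7 were higher and 4 lower (median log2 fold change 0.41). The share lower, 22.2%, was near the 22.6% over all genes tested, and the share higher was 38.9%, against 17.7%. Fzd10, a Frizzled of the neural tube and limb, had 22.5, 14.7, 4.22 and 6.05 CPM in N1 to N4, against 0.3, 0 and 0.202 CPM in N30, N31 and N33, while Fzd4, the Frizzled that binds Norrin in retinal vessels, had 15, 34.9, 12.4 and 19.2 CPM, against 836, 785 and 559 CPM (-5.16 ± 0.41, adjusted p = 8.63e-05). Thus 2 receptors of 1 family differed in opposite directions. The count of receptors higher was 4 without N31, 3 without N33 and 3 in a fit of all 22 libraries, and 1 receptor was lower with the term for Y-linked expression. Of 9 tested inhibitors and inhibitor receptors, 1 was higher and 3 lower (median -1.81). Kremen1, a receptor for Dkk inhibitors, had 42.7, 30.3, 22.9 and 23.3 CPM, against 301, 231 and 156 CPM (-2.94 ± 0.31, adjusted p = 0.000263), and Dkk2 had 30.1, 41.2, 18.3 and 19.9 CPM, against 3.85, 1.49 and 1.28 CPM (3.63 ± 0.52, adjusted p = 0.00115).

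Known targets of beta-catenin signalling, counted together with Tcf/Lef and Tle factors, differed in both directions, with more rises than falls. Of 17 listed targets and Tcf/Lef or Tle factors, 7 were higher and 2 lower (median log2 fold change 0.65). The rises include the corepressor Tle1 and the falls the repressor Tcf7l1, so this is not a count of induced transcripts alone. The share lower, 11.8%, was below the 22.6% over all genes tested, and the share higher was 41.2%, against 17.7%. Axin2, a feedback inhibitor and standard readout of the pathway, had 97.5, 42.5, 47.9 and 59.7 CPM in N1 to N4, against 9.5, 4.93 and 3.57 CPM in N30, N31 and N33 (3.36 ± 0.45, adjusted p = 0.000851). Nkd1, another feedback inhibitor, had 121, 36.3, 149 and 157 CPM, against 0.721, 0.257 and 0.877 CPM (7.57 ± 0.72, adjusted p = 0.000184). Lef1, a transcription factor that binds beta-catenin, had 27.5, 15.3, 21.3 and 18.4 CPM, against 1.26, 0.873 and 1.01 CPM (4.29 ± 0.34, adjusted p = 8.63e-05). For each the lowest combined library was above the highest Snf5-null one. Sp5, a direct target, had 9.07, 9.18, 6.48 and 3.42 CPM and no counts in the Snf5-null libraries, at least 120-fold higher (adjusted p = 0.000553). Tle1, the corepressor used as a diagnostic stain for synovial sarcoma, had 216, 191, 201 and 173 CPM, against 40.6, 28.4 and 29.9 CPM (2.57 ± 0.19, adjusted p = 7.67e-05). Myc went down, with 28.2, 31.8, 39.1 and 40.1 CPM, against 57.6, 103 and 97.8 CPM (-1.31 ± 0.24, adjusted p = 0.00368), as did the repressor Tcf7l1, whose call was lost with the term for Y-linked expression (adjusted p = 0.234). Ccnd1, Rnf43, Znrf3 and Tcf7 were among the 8 not called.

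Fgf ligands and receptors differed between the groups in both directions. Of 13 tested ligands, 6 were higher and 3 lower (median log2 fold change 1.54). The share lower, 23.1%, was near the 22.6% over all genes tested, and the share higher was 46.2%, against 17.7%. Ligands near 0 in the Snf5-null libraries could be tested only through the combined group, so the count of rises is a description. Fgf18 had 7.78, 8.49, 7.39 and 5.99 CPM in N1 to N4, against 0.18, 0.103 and 0 CPM in N30, N31 and N33 (6.15 ± 0.68, adjusted p = 0.000349), and Fgf8, a ligand of early patterning centres, had 8.59, 10.8, 6.62 and 4.79 CPM, against 0, 0 and 0.0674 CPM, a ratio of 396 with a counting interval of 70.7 to 15700. Fgf5 fell to 0.594, 0.459, 0.0704 and 0.0571 CPM, against 0.841, 17.4 and 20.6 CPM, and its call was lost with the term for Y-linked expression (adjusted p = 0.158). Of 16 receptors and feedback genes, 5 were higher and 5 lower (median 0.19). Fgfr3, a receptor of cartilage and brain, had 106, 38, 123 and 200 CPM, against 1.5, 0.205 and 0.877 CPM (7.09 ± 0.84, adjusted p = 0.000467). Fgfr4, a receptor of muscle progenitors and rhabdomyosarcoma, had 6.48, 3.96, 0.211 and 0.114 CPM, against 328, 277 and 269 CPM (-6.74 ± 1.1, adjusted p = 0.0021; 0.0568 with the term for Y-linked expression). These 2 receptors differed between the groups in opposite directions, and Fgfr1 was not called. Etv4, an ETS factor induced by Fgf signalling, had 86.1, 48.6, 108 and 107 CPM, against 1.44, 2.93 and 3.78 CPM (5.01 ± 0.46, adjusted p = 0.000154), while the feedback inhibitor Spred2 had 38.9, 29.2, 17.8 and 19.9 CPM, against 65.6, 74 and 65.8 CPM, a call lost with the term for Y-linked expression (adjusted p = 0.115). In a fit of all 22 libraries 3 ligands were higher. Without N31 the counts of receptors and feedback genes were 3 higher and 3 lower, and without N33 3 were higher. Dusp6 and Etv5, also readouts of the pathway, were not called.

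Of 12 tested Hedgehog pathway genes, 6 were higher (median log2 fold change 1.05). Cdon, a surface co-receptor for Hedgehog that also promotes myogenesis, had 1330, 578, 721 and 998 CPM in N1 to N4, against 16.2, 7.04 and 9.51 CPM in N30, N31 and N33 (6.38 ± 0.49, adjusted p = 8.35e-05). Gli2, a transcription factor of the pathway, had 44.7, 25.2, 17.5 and 23.2 CPM, against 4.09, 0.462 and 0.337 CPM (4.08 ± 0.89, adjusted p = 0.00799), and Ptch1, the receptor and a target, had 369, 163, 140 and 210 CPM, against 48.7, 39.3 and 33.2 CPM (2.45 ± 0.37, adjusted p = 0.00148). Every combined library was above every Snf5-null library in these 3 genes. Gli1, the usual transcriptional readout, was not called, nor was Shh.

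**Figure D4:**
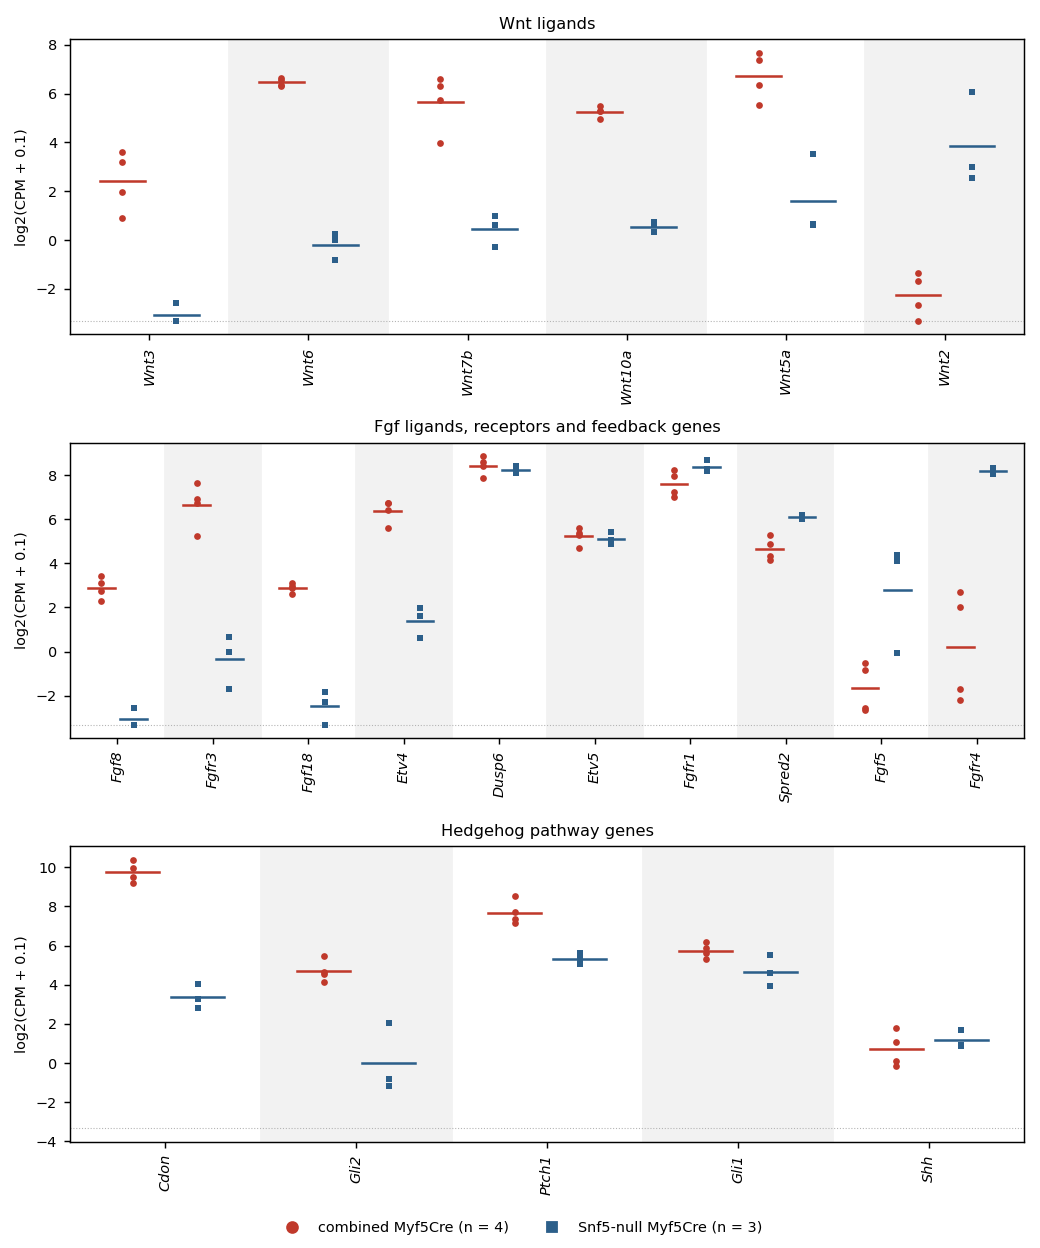
Level in each library of the Wnt ligands, Fgf ligands, receptors and feedback genes, and Hedgehog pathway genes named in the text as log2(CPM + 0.1), with combined libraries as red circles (n = 4), Snf5-null libraries as blue squares (n = 3), a horizontal line at each group mean and a dotted line at 0 CPM. Wnt6, Fgfr3 and Cdon are higher in every combined library, and Wnt2 and Fgfr4 are lower in every one.

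A list of 21 tested genes associated with synovial sarcoma had 16 higher and 2 lower in combined tumours, with a median log2 fold change of 3.08. The list was chosen with earlier results of these data known. Tle1, Nkd1, Axin2, Fgfr3, Fgf18, Fzd10, Igf2, Pdgfra, Sox8 and Sox9 are among its genes that are also counted in other lists here. The count is therefore a description and not independent of those lists. Beside Tle1, Nkd1, Fgfr3, Zic2 and Axin2, given above, Tnfrsf19, a receptor induced by Wnt signalling, had 317, 167, 733 and 467 CPM in N1 to N4, against 4.09, 0.462 and 1.55 CPM in N30, N31 and N33 (7.7 ± 0.93, adjusted p = 0.000505). Pdgfra, the platelet-derived growth factor receptor alpha of mesenchymal cells, had 472, 518, 376 and 415 CPM, against 19.7, 10.2 and 9.11 CPM (5.1 ± 0.35, adjusted p = 6.33e-05), and Epha4, an ephrin receptor, had 56.9, 41.1, 31.4 and 28.3 CPM, against 1.56, 1.34 and 1.35 CPM. Bcl2, the anti-apoptotic protein that stains most human synovial sarcomas, went the other way, with 15.2, 8.09, 5.35 and 7.64 CPM, against 93.9, 207 and 172 CPM (-4.11 ± 0.42, adjusted p = 0.00024). Every combined library was below every Snf5-null library for Bcl2. Crabp1, a retinoic acid binding protein, was called lower with 1 library far above the others: it had 8.37, 8.38, 12.9 and 17.5 CPM, against 258 CPM in N30 and 11.6 and 14.2 CPM in N31 and N33, and its adjusted p was 0.0482, or 0.794 without N30. Leaving out N1, N2, N3 or N4, or adding the term for Y-linked expression, also ended that call.

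Several PRC1 subunits were higher, and Ezh2, Eed and Suz12 of PRC2 were not called. Of 21 tested subunits of PRC1, which ubiquitinates histone H2A, 7 were higher and 1 lower (median log2 fold change 0.48). Bcor, the scaffold of the noncanonical complex PRC1.1, had 992, 405, 299 and 342 CPM in N1 to N4, against 61.4, 76.2 and 63.7 CPM in N30, N31 and N33 (2.92 ± 0.47, adjusted p = 0.00185). Cbx2, a chromodomain subunit of canonical PRC1, had 72.3, 52.3, 42.7 and 46.2 CPM, against 8.83, 7.35 and 6.54 CPM (2.81 ± 0.25, adjusted p = 0.000147), and Rybp, of noncanonical PRC1, had 101, 54.3, 59.5 and 74.5 CPM, against 14.2, 11.5 and 9.58 CPM (2.62 ± 0.28). Pcgf5, which defines another noncanonical complex, was the subunit that fell, with 5.24, 4.59, 3.1 and 2.97 CPM, against 29.3, 33.6 and 33.2 CPM (-3.01 ± 0.27, adjusted p = 0.00014). In these 4 genes the groups did not overlap, while Kdm2b and Pcgf1, also of PRC1.1, and Bmi1 were not called. Of 12 tested subunits of PRC2, which methylates histone H3, 1 was higher and 2 were lower (median 0.18), and Ezh2, Eed and Suz12, its core, were among the 9 not called. The shares, 8.33% higher and 16.7% lower, were below those over all genes tested. Aebp2, an accessory subunit, had 69, 50.8, 47.2 and 54.4 CPM, against 149, 188 and 206 CPM (-1.71 ± 0.19, adjusted p = 0.000349), and Epop, a vertebrate-specific accessory subunit, had 29.3, 17.6, 18.9 and 18.4 CPM, against 4.93, 8.42 and 6.81 CPM (1.65 ± 0.3, adjusted p = 0.00351). Ezh1, the other catalytic subunit, was also called lower, with 33.1, 18.1, 10.9 and 11.2 CPM, against 50.4, 43.3 and 38.7 CPM (-1.26 ± 0.39, adjusted p = 0.0342), and its call was lost with the term for Y-linked expression (0.448) and without each library other than N1, or with N31 and N33 summed (0.059 to 0.091). Without N1, 4 PRC1 subunits were called lower.

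Of 28 tested SWI/SNF subunits, 6 were higher and 2 lower, with a median log2 fold change of -0.02. The share higher, 21.4%, was near the 17.7% over all genes tested, and the share lower, 7.14%, was below the 22.6%. Smarca2, one of the alternative ATPases, had 127, 98.7, 80.5 and 88.5 CPM in N1 to N4, against 66.1, 41.9 and 35.3 CPM in N30, N31 and N33 (1.05 ± 0.27), and Brd7, of the PBAF form of the complex, had 125, 101, 242 and 226 CPM, against 73.6, 75.6 and 76.2 CPM (1.21 ± 0.32). The call of Smarca2 was lost without N31 (adjusted p = 0.0608) or N33 (0.0585), and that of Brd7 without N30 (0.0609), N31 (0.0699) or N33 (0.0618) and with the term for Y-linked expression (0.263). Smarcd3, which had 13.1, 11.5, 17.3 and 12.3 CPM, against 47.2, 22.4 and 26.8 CPM, shares 48.2% of its exon bases with genes on the opposite strand, and its call was lost with that term too (0.114). The ATPase Smarca4, Smarcc1, Arid1a, Brd9 and Pbrm1 were among the 20 not called. Without N30 the count of subunits called higher was 2, without N31 it was 3 and without N33 it was 2, and without N1 the count called lower was 5.

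Imprinted growth genes, which are expressed from 1 parental allele and are most active in fetal tissue, rose in 8 of 15 and fell in 3 of 15, with a median log2 fold change of 2.99. Mest had 5700, 5180, 6840 and 6580 CPM in N1 to N4, against 120, 227 and 287 CPM in N30, N31 and N33 (4.84 ± 0.42, adjusted p = 0.000124). Grb10, an adaptor that restrains insulin signalling, had 2340, 1450, 1880 and 2080 CPM, against 82, 116 and 101 CPM (4.28 ± 0.29, adjusted p = 6.08e-05). Cdkn1c, the cell cycle inhibitor p57, had 269, 177, 333 and 277 CPM, against 6.43, 4.57 and 4.86 CPM (5.64 ± 0.31, adjusted p = 2.74e-05). For these 3 genes the lowest combined library was far above the highest Snf5-null one. Igf2, the fetal growth factor, had 854, 942, 1520 and 1320 CPM, against 226, 66.2 and 120 CPM (3.08 ± 0.47, adjusted p = 0.00146), and H19, the noncoding RNA of the same imprinted domain, had 2000, 1170, 2110 and 2120 CPM, against 436, 133 and 128 CPM (2.99 ± 0.53, adjusted p = 0.00305). The receptor that clears Igf2, Igf2r, fell to 178, 125, 120 and 116 CPM, against 651, 538 and 459 CPM (-2.03 ± 0.22, adjusted p = 0.00031). Peg3 fell as well, with 421, 391, 175 and 228 CPM, against 1670, 4440 and 3890 CPM (-3.45 ± 0.46, adjusted p = 0.000795). Its neighbour Zim1 was called lower, but not without N2, N4, N31 or N33 nor with the term for Y-linked expression (adjusted p from 0.0511 to 0.348). Dlk1, Meg3, Peg10 and Ndn were not called. In a fit of all 22 libraries 5 genes of the list were higher, and the calls of Igf2 and H19 were lost (adjusted p = 0.0535 and 0.208). Exons of Cdkn1c share 30.7% of their bases with a gene on the opposite strand.

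Genes of the muscle lineage differed between the groups in both directions. Of 22 tested myogenic regulators and early myogenic genes, 6 were higher and 11 lower, with a median log2 fold change of -1.23. Pax3, the paired-box factor of embryonic muscle progenitors and neural crest, had 32.6, 98, 151 and 138 CPM in N1 to N4, against 2.1, 0.103 and 0.674 CPM in N30, N31 and N33 (6.78 ± 0.97, adjusted p = 0.00113). Pax7, the satellite cell factor, had 33.5, 16.6, 2.82 and 5.02 CPM, against 0.601, 0.0514 and 0.0674 CPM (5.88 ± 1.25, adjusted p = 0.0069), and Eya1, a transcriptional cofactor and phosphatase, had 242, 110, 185 and 219 CPM, against 7.21, 1.64 and 2.97 CPM (5.58 ± 0.6, adjusted p = 0.000293). The libraries of the groups did not overlap in these 3 genes. Met, the hepatocyte growth factor receptor of migrating myoblasts, had 7.24, 8.15, 0.634 and 1.48 CPM, against 777, 1000 and 978 CPM (-7.7 ± 0.88, adjusted p = 0.000388). Cdh15, the cadherin of satellite cells, had 2.59, 1.26, 0.352 and 0.513 CPM, against 55, 43.4 and 43.1 CPM (-5.29 ± 0.61, adjusted p = 0.000417). Mymx, the fusion peptide myomixer, had 0.108, 0.115, 0 and 0.0571 CPM, against 36.1, 1.75 and 7.76 CPM. These 3 genes were lower in every combined library. Myf5, whose regulatory sequence drives the Cre, had 17.6, 8.49, 0 and 0.228 CPM, against 106, 139 and 132 CPM (-4.24 ± 1.32, adjusted p = 0.0347). Thus N1 and N2 kept more of it than N3 and N4, and its call was lost without N2, N30, N31 or N33, with N31 and N33 summed, in a fit of all 22 libraries and with the term for Y-linked expression (adjusted p from 0.0579 to 0.34). Mymx lost its call with that term as well (0.069), Myod1 was too low to be tested, and 3 genes of the list were called lower under it. In a fit of all 22 libraries 7 were called lower, without Cdh15 (0.0528).

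Markers of mature skeletal muscle were lower in 12 of 21 and higher in 1, with a median log2 fold change of -4.29, but N30 stood far above every other library. Their summed level was 359 to 554 CPM in the combined libraries, against 8380 CPM in N30, 648 CPM in N31 and 495 CPM in N33. Ckm, muscle creatine kinase, had 3.51, 9.35, 1.2 and 0.0571 CPM in N1 to N4, against 508, 13.1 and 4.05 CPM, and the groups overlapped. Without N30 the count lower was 3 and the call of Ckm was lost (adjusted p = 0.467), and with the term for Y-linked expression it was 2. Without N3 the count was 6 and without N4 it was 5, and DESeq2 and a fit of all 22 libraries called 4 each. Eno3, the muscle enolase, did not depend on N30, with 23.3, 31.3, 54.1 and 41.3 CPM, against 216, 239 and 306 CPM (-2.76 ± 0.3, adjusted p = 0.000303). Tnnt1, the slow troponin T, was the member that rose, with 16.9, 13.5, 11.9 and 7.42 CPM, against 0.962, 1.49 and 1.21 CPM (3.34 ± 0.4, adjusted p = 0.000493). Myh8, the perinatal myosin heavy chain counted with the early myogenic genes, had 766, 212, 1170 and 1730 CPM, against 80.7, 44.1 and 27.8 CPM (4.25 ± 0.77, adjusted p = 0.00329; 0.0948 in a fit of all 22 libraries).

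Neural genes were higher in 11 and lower in 3 of 25 tested, with a median log2 fold change of 1.05. Besides Sez6, given above, its relative Sez6l had 55, 25.4, 52.2 and 77.2 CPM in N1 to N4, against 0.661, 0.154 and 0.27 CPM in N30, N31 and N33 (7.17 ± 0.62, adjusted p = 0.000126), and Grin2c, an NMDA receptor subunit, had 206, 70.7, 141 and 186 CPM, against 1.08, 0.154 and 0.337 CPM. Grin2b, another such subunit, had 6.97, 6.71, 0.915 and 1.54 CPM, against 0.18, 0.0514 and 0.405 CPM (4.25 ± 1.02, adjusted p = 0.0121). Snap25, a SNARE protein of synaptic release, showed the reverse, with 0.972, 4.88, 0 and 0.0571 CPM, against 220, 241 and 231 CPM (-7.26 ± 1.19, adjusted p = 0.00215; 0.0567 with the term for Y-linked expression). Neural genes thus differed in both directions, and Tubb3, Syn1, Ncam1 and Gap43 were among the 11 not called. The share lower, 12%, was below the 22.6% over all genes tested, and the share higher was 44%, against 17.7%. Without N31 the count higher was 5, and without N33 it was 6. Among 6 tested Schwann cell markers, Ngfr, the p75 neurotrophin receptor, had 634, 365, 834 and 805 CPM, against 9.19, 1.44 and 3.1 CPM (7.17 ± 0.77, adjusted p = 0.000303), while S100b had 0, 0.229, 0.0704 and 0 CPM, against 2.82, 9.86 and 7.08 CPM (-6.34 ± 0.97, adjusted p = 0.00151). The summed level of that list, 399 to 841 CPM in combined libraries against 35.3 to 57.8 CPM in Snf5-null libraries, was mostly Ngfr in the combined ones, and the defining marker Sox10 was too low to be tested.

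Epithelial genes, a feature of the biphasic form of synovial sarcoma, were higher in 6 and lower in 1 of 17 tested (median log2 fold change 0.46). Cldn6, a claudin of embryonic epithelia, had 12.7, 7.57, 7.39 and 8.22 CPM in N1 to N4, against 0, 0.0514 and 0 CPM in N30, N31 and N33, a ratio of 464 with a counting interval of 83.0 to 18400. Epcam, the epithelial adhesion molecule, had 16.6, 15, 4.01 and 2.23 CPM, against 0.421, 0.668 and 1.35 CPM (3.54 ± 0.86, adjusted p = 0.0128). Both were higher in every combined library. Cdh1, Krt8, Krt18 and Ocln were among the 10 not called, and Krt19 and Dsp were too low to be tested. Of 5 tested keratinocyte markers, 2 were higher and 2 lower, and their list summed to 6.05 to 13.1 CPM, against 25 to 62.7 CPM. Lgals7 made up 57.8 CPM of the sum in N30 and Col17a1 22.5 CPM of that in N31, and neither was called with the term for Y-linked expression (adjusted p = 0.193 for Lgals7 and 0.069 for Col17a1). Krt5, Krt14 and Krt1 were too low to be tested.

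Most tested immune cell markers were lower in combined tumours. Of 18 tested macrophage and myeloid markers, 17 were lower, with a median log2 fold change of -4.96, and their summed level was 118 to 359 CPM in combined libraries, against 5520 to 10100 CPM in Snf5-null libraries. Csf1r, the receptor on which macrophages depend, had 20.3, 22.5, 5.91 and 7.13 CPM in N1 to N4, against 1410, 723 and 624 CPM in N30, N31 and N33 (-6.04 ± 0.62, adjusted p = 0.000248). Csf3r, the granulocyte colony-stimulating factor receptor of neutrophils, had 0.486, 0.459, 0.211 and 0.228 CPM, against 47.8, 83.9 and 73.7 CPM (-7.58 ± 0.38, adjusted p = 2.28e-05). Of 12 tested T and NK cell markers, 11 were lower (median -5.73, or -5.25 with genes at 0 set at their bound), summing to 1.83 to 4.97 CPM, against 25 to 58.8 CPM. Cd3g, a T cell receptor subunit, had no counts in the 4 combined libraries, against 4.51, 2.05 and 1.15 CPM, at least 58.5-fold lower (adjusted p = 0.00324). In all, 6 markers of that list were at 0 in every combined library. Of the 19 listed, 12 were tested, and those near 0 in combined libraries could pass the filter on low counts only through the Snf5-null group. All 5 tested B and plasma cell markers were lower (median -4.8), summing to 1.27 to 3.5 CPM, against 39.7 to 160 CPM. The same limit holds for these markers, of which 10 were listed. Jchain, the joining chain of plasma cells, had 0.054, 0.115, 0.0704 and 0.0571 CPM, against 18.3, 29.8 and 5.26 CPM (-7.78 ± 0.73, adjusted p = 0.000174). With the term for Y-linked expression, 15 myeloid, 6 T and NK and 3 B cell markers were called lower, and 18 T and NK markers were lower with no filter on low counts and in a fit of all 22 libraries.

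Genes of antigen presentation and interferon response moved with those markers. Of 27 tested interferon-stimulated genes, 25 were lower (median log2 fold change -3.32), with a summed level of 286 to 831 CPM in combined libraries, against 2980 to 3620 CPM in Snf5-null libraries. Cxcl10, the interferon-induced chemokine, had 0.594, 0.975, 0.211 and 0.114 CPM in N1 to N4, against 128, 65 and 29.9 CPM in N30, N31 and N33 (-7.25 ± 0.75, adjusted p = 0.00026), and Oas3, a sensor of double-stranded RNA, had 0.486, 0.344, 0.282 and 0.285 CPM, against 39.4, 47.2 and 22.9 CPM (-6.67 ± 0.37, adjusted p = 2.98e-05). Of 12 tested MHC class I presentation genes, 11 were lower (median -1.53). B2m, the light chain of every class I molecule, had 338, 265, 144 and 169 CPM, against 1220, 1080 and 695 CPM (-2.13 ± 0.35, adjusted p = 0.0021). All 9 tested class II genes were lower (median -4.98). H2-Aa, a class II chain, had 19.5, 34.6, 2.32 and 3.88 CPM, against 1110, 163 and 150 CPM, so that N30 was far above N31 and N33. The class II list summed to 23.7 to 139 CPM in combined libraries, against 612 to 5350 CPM in Snf5-null libraries. How far the differences in interferon and presentation genes go with the number of immune cells was not tested. With the term for Y-linked expression, 13 interferon-stimulated, 5 class I and 1 class II genes were called lower, and the calls of H2-Aa and B2m were lost (adjusted p = 0.179 and 0.0613). In a fit of all 22 libraries 7 class I genes were lower. Ifit3 and Ifit3b, and the H2 genes, have close copies, so their split of reads is uncertain.

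Of 24 tested chemokines, their growth factors and checkpoint genes, 19 were lower and 1 higher (median log2 fold change -3.97). Cxcl5, which attracts neutrophils, had 0.162, 0.229, 0.0704 and 0 CPM in N1 to N4, against 22.2, 184 and 167 CPM in N30, N31 and N33 (-9.96 ± 0.98, adjusted p = 0.000214). Csf1, the ligand of Csf1r, had 12.6, 10.3, 4.72 and 5.76 CPM, against 439, 435 and 334 CPM (-5.59 ± 0.39, adjusted p = 6.23e-05). Ligand and receptor were thus both lower in every combined library. The one that rose was Cx3cl1, a membrane-bound chemokine, with 5.19, 9.98, 11.1 and 11.9 CPM, against 4.57, 0.771 and 0.742 CPM. That call was lost without N2, N3, N4, N31 or N33 and with the term for Y-linked expression (adjusted p from 0.0693 to 0.347), in which fit 10 genes of the list were lower. Cxcl12 and Cxcl14 were not called.

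Matrix proteases and their inhibitors were lower in 17 and higher in 2 of 27 tested (median log2 fold change -2.03), with a summed level of 1710 to 1960 CPM in combined libraries, against 9380 to 13900 CPM in Snf5-null libraries. Plau, the urokinase plasminogen activator, had 9.24, 12, 5.49 and 5.19 CPM in N1 to N4, against 1110, 1530 and 1680 CPM in N30, N31 and N33 (-7.49 ± 0.41, adjusted p = 2.77e-05). Timp1, an inhibitor of metalloproteinases, had 10.3, 8.38, 12.8 and 4.51 CPM, against 669, 498 and 580 CPM (-6.02 ± 0.37, adjusted p = 4.4e-05). Protease and inhibitor were thus lower together. Mmp9, the gelatinase of osteoclasts and neutrophils, had 72.3, 49.5, 3.17 and 6.33 CPM, against 195, 3080 and 3600 CPM, and like Ctsk it was lowest in N30 among the Snf5-null libraries. Its call was lost with the term for Y-linked expression (adjusted p = 0.178), in which fit 11 genes of the list were lower. Mmp16, a membrane-type metalloproteinase, rose, with 67.5, 83.4, 52.4 and 49.6 CPM, against 10.2, 11.8 and 8.16 CPM (2.65 ± 0.26, adjusted p = 0.000201).

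Cartilage and bone markers were lower in 5 and higher in 2 of 11 tested (median log2 fold change -1.42). The share higher, 18.2%, was near the 17.7% over all genes tested, and the share lower was 45.5%, against 22.6%. Col2a1, the collagen of cartilage, rose, with 463, 305, 260 and 331 CPM in N1 to N4, against 1.86, 1.54 and 2.02 CPM in N30, N31 and N33 (7.55 ± 0.32, adjusted p = 1.52e-05). Matn1, another cartilage matrix protein, fell, with 5.35, 1.72, 0.0704 and 0.171 CPM, against 112, 99.7 and 150 CPM (-6.01 ± 1.06, adjusted p = 0.00301). Acan, the main cartilage proteoglycan, was not called. The bone factors were divided in the same way: Sp7 had 8.37, 10.3, 1.97 and 3.94 CPM, against 0.18, 0.205 and 0.0674 CPM (5.25 ± 0.79, adjusted p = 0.00145), and Runx2 had 2.05, 2.7, 0.352 and 0.228 CPM, against 45.6, 79.4 and 74.7 CPM (-5.62 ± 0.76, adjusted p = 0.000878). Spp1, osteopontin, had 7.99, 15.6, 4.15 and 10.4 CPM, against 720, 2470 and 2240 CPM (-7.56 ± 0.65, adjusted p = 0.00012). Cartilage and bone genes therefore did not move as one list, whose count lower was 3 with the term for Y-linked expression.

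Fibroblast and matrix genes were lower in 12 and higher in 2 of 26 tested (median log2 fold change -1.6), and summed to 3390 to 10300 CPM in combined libraries, against 13200 to 28000 CPM in Snf5-null libraries. Lum, the small proteoglycan lumican, had 4.59, 7.92, 1.34 and 1.83 CPM in N1 to N4, against 246, 536 and 423 CPM in N30, N31 and N33 (-6.67 ± 0.67, adjusted p = 0.000232). Col14a1, a fibril-associated collagen, had 4.05, 8.66, 2.89 and 2.91 CPM, against 376, 288 and 325 CPM (-6.15 ± 0.44, adjusted p = 6.84e-05). Pdgfra rose, as given above, and the major fibrillar collagen genes Col1a1 and Col3a1 were not called. With the term for Y-linked expression 5 genes of the list were lower, and without N30 4 were higher.

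Vessel markers differed in both directions, and red blood cell genes were higher. Of 15 endothelial markers, 3 were higher and 6 lower (median log2 fold change -0.37). They summed to 241 to 277 CPM in combined libraries, against 316 to 364 CPM in Snf5-null libraries. The share higher, 20%, was near the 17.7% over all genes tested, and the share lower was 40%, against 22.6%. Pecam1, the adhesion molecule CD31, had 34.2, 41.4, 29.6 and 32.6 CPM in N1 to N4, against 63, 151 and 122 CPM in N30, N31 and N33 (-1.7 ± 0.29, adjusted p = 0.00252), and Cldn5, the claudin of tight endothelium, had 14.5, 29.5, 15.6 and 13.8 CPM, against 2.82, 5.86 and 5.67 CPM (1.94 ± 0.41, adjusted p = 0.00665). Both calls were lost with the term for Y-linked expression (adjusted p = 0.0532 for Pecam1 and 0.079 for Cldn5), in which fit 1 marker was higher and 1 lower. Without N30 1 was higher, and in a fit of all 22 libraries 1 was lower. Pericyte and smooth muscle markers, of which 4 of 10 were lower and 1 higher, summed to 249 to 339 CPM, against 547 to 588 CPM. All 5 red blood cell genes were higher (median 4.68), with a summed level of 162 to 1160 CPM, against 7.63 to 38.8 CPM. Hbb-bt, a beta globin, had 14.6, 15, 90.4 and 69.4 CPM, against 1.02, 0.719 and 2.77 CPM (4.99 ± 0.93, adjusted p = 0.00382). N3 and N4 were the highest, the globin genes are close copies whose reads may be split, and 1 of the 5 was higher with the term for Y-linked expression. The adipocyte markers summed to 15.1 to 587 CPM in combined libraries, highest in N2, against 70 to 95.4 CPM in Snf5-null libraries, and without N2 2 of the 3 tested were called lower. The part of these cell types in the other results was not tested.

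**Figure D5:**
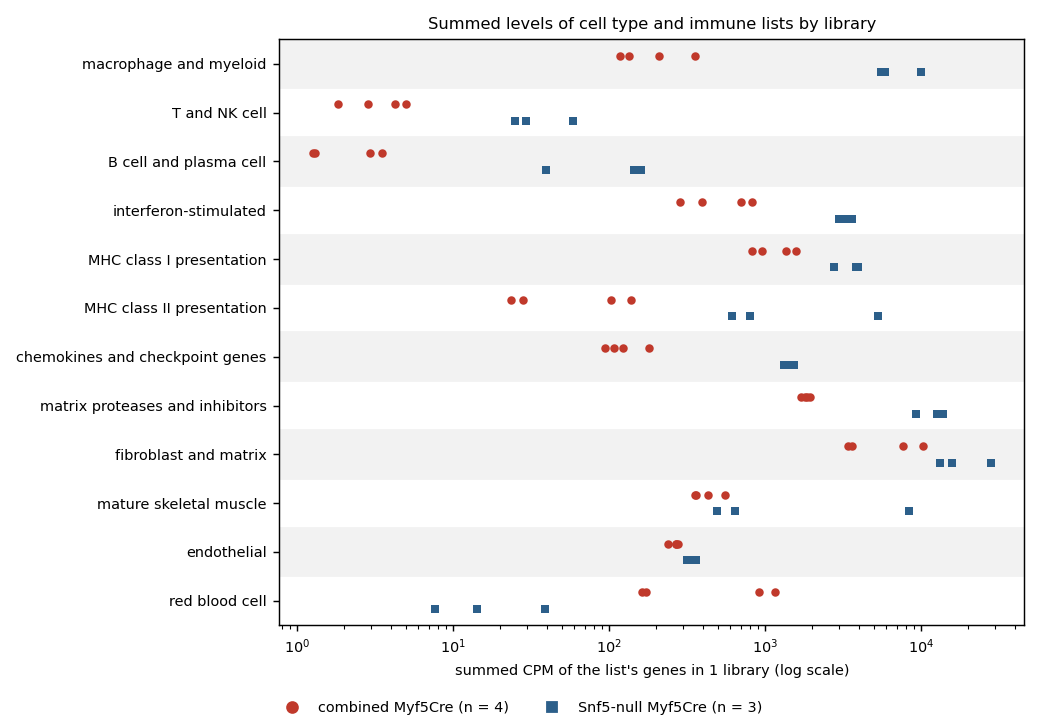
Summed level of the immune, matrix, muscle, endothelial and red blood cell lists in each library, in CPM on a log axis, with combined libraries as red circles (n = 4) and Snf5-null libraries as blue squares (n = 3). The myeloid sums, 118 to 359 CPM against 5520 to 10100 CPM, are far apart, the mature muscle sum of N30, 8380 CPM, stands alone, and the red blood cell sums lie higher in the combined libraries.

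Few cell cycle genes were called. Of 16 tested G1/S genes and 18 tested G2/M genes, 1 each was higher, with median log2 fold changes of 0.05 and 0.25. The 2 that were called, Ccne2 and Cenpa, lost their calls without N3, N4, N30 or N31 (adjusted p from 0.0584 to 0.105 for Ccne2 and from 0.0502 to 0.116 for Cenpa) and with the term for Y-linked expression (0.726 and 0.588). Without N1, 4 G2/M genes were called higher. Mki67, Top2a, Pcna and Mcm2 were not called. Genes induced by p53, the tumour suppressor that responds to DNA damage, and of the Cdkn2 locus were lower in 9 and higher in 1 of 18 (median -0.58). Cdkn2a, which encodes the inhibitors p16 and p19Arf, had 7.62, 7.4, 8.87 and 9.64 CPM in N1 to N4, against 27.4, 47.6 and 59.8 CPM in N30, N31 and N33 (-2.42 ± 0.28, adjusted p = 0.000426). Its neighbour Cdkn2b fell similarly (-2.43 ± 0.28, adjusted p = 0.000384), and Cdkn1a, the p53 target p21, had 49.2, 38.1, 23.2 and 27.8 CPM, against 115, 116 and 106 CPM (-1.7 ± 0.26, adjusted p = 0.0015). Eda2r, a death receptor and p53 target, had 7.13, 6.88, 10.8 and 11.7 CPM, against 74.3, 93.3 and 98.9 CPM (-3.28 ± 0.25, adjusted p = 8.01e-05). In these genes every combined library was below every Snf5-null library, while Bax, Bbc3 and Gdf15 were not called.

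Hypoxia and glycolysis genes were higher in 11 and lower in 1 of 24 tested (median log2 fold change 0.69). Adm, the hypoxia-induced peptide adrenomedullin, had 32.6, 15.4, 39.4 and 30.2 CPM in N1 to N4, against 1.92, 5.24 and 2.56 CPM in N30, N31 and N33 (3.17 ± 0.47, adjusted p = 0.00139). Pdk1, a kinase that limits entry of pyruvate into mitochondria, had 331, 221, 323 and 282 CPM, against 43.4, 74.2 and 64.7 CPM (2.25 ± 0.25, adjusted p = 0.000351). Vegfa, the vessel growth factor, had 221, 89.2, 66.7 and 90.1 CPM, against 27.2, 41.8 and 27 CPM (1.87 ± 0.44, adjusted p = 0.0111). Each was higher in every combined library, while Car9, Slc2a1, Ldha and Pkm were not called. Pfkfb4, a regulator of glycolysis, was the member that fell, with 9.29, 7.52, 5.35 and 6.85 CPM, against 56.1, 30.3 and 24.1 CPM (-2.34 ± 0.34, adjusted p = 0.00115). Without N30 the count higher was 7. Gapdh and Pgk1 have many near-identical pseudogene copies, so their values are uncertain.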

How the data were processed

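RNA of homogenised fresh frozen tumour tissue was extracted with the RNeasy Mini kit and made into libraries with the TruSeq Stranded mRNA kit, per the labels' protocols. The authors deposited whole-number counts of reads per gene, 48440 genes with no unnamed entries, and these counts were used as deposited. Per the submitters' processing notes, the mm10 build and the tools STAR 2.7.5a, RSEM, featureCounts, DESeq2 and cutadapt are named, with no stated role or order. The sources used here do not say how strand or reads with several positions were handled. Gene names, positions and exon overlaps come from GENCODE vM21, and promoter windows from RefSeq.

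The 7 libraries were fitted with edgeR 4.0.16 (limma 3.58.1, R 4.3.3): filterByExpr with a minimum count of 10 and total of 15, which kept 16081 genes and 99.81% of counts, TMM scaling, a quasi-likelihood fit with group as the only term, and Benjamini-Hochberg adjustment over all genes tested. Calls were made at adjusted p below 0.05. The SE is the size of the log2 fold change divided by the square root of F. CPM are counts scaled to a common TMM-adjusted library size. Where a group had 0 counts, the fold is a bound against 3 counts over that group. Where it had 1 to 3 counts, a ratio with an exact 95% counting interval replaces the fitted fold, and such intervals and bounds cover counting error only.

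Named genes were Smarcb1, Ss18, Tle1 and Ptprc, then the 15 largest rises and 15 largest falls among called genes whose groups did not overlap and whose mean log2 CPM was at least 2, then, in each of 39 lists, the 2 largest called rises and falls, with further list members; some genes are not reported here. Members and lists were chosen with earlier results of these data known. The closest pairs of libraries, N31 with N33 and N3 with N4, differed by a median chi-square of 5.57 and 7.85, against 0.455 for sampling noise. That check can mark 1 library sequenced again, but it cannot tell 2 pieces of 1 tumour or animal from separate ones. Each library was counted as 1 sample.

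Alternatives were RLE scaling, DESeq2 1.42.0, no filter on low counts, a fit of all 22 libraries, each library left out, and N31 and N33 summed. A term for Y-linked expression was chosen after seeing the data.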

Additional observations from a re-analysis of the deposited data

Results flagged for a closer look

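In 369 gene levels of the combined group, the highest or the lowest of the 4 libraries was compared with the other 3, and 12 stood far from them relative to the whole range. Chance marks about 1 in 20, which is a larger share than 12 of 369. The 12 are therefore listed as a description only. Ddx3y, a Y-linked gene, had 0.756 CPM in N1 and 141 to 192 CPM in the other combined libraries. Meox2, a homeobox factor of the somite, had 37.4 CPM in N1 and 203 to 256 CPM in the others, and Plvap, an endothelial protein, had 9.45 CPM in N1 and 12.2 to 12.3 CPM in the others. N1 was high in Epop, at 29.3 CPM against 17.6 to 18.9 CPM, and in Igf2r, at 178 CPM against 116 to 125 CPM. N2 was low in Irx5, at 14.6 CPM against 46.8 to 48.2 CPM, in Lgr5, at 5.56 CPM against 12.3 to 13.2 CPM, in Lag3, at 1.72 CPM against 2.11 to 2.18 CPM, and in H19, at 1170 CPM against 2000 to 2120 CPM. N2 was high in Cldn5, at 29.5 CPM against 13.8 to 15.6 CPM. Oasl1 had 0.634 CPM in N3 and 1.71 to 1.78 CPM in the others, and Hoxa9 had 3.71 CPM in N4 and 0.972 to 1.09 CPM in the others.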

How the results depend on the processing

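The count of genes higher in combined tumours was 2847, with 1844 to 3491 when 1 library was left out (1844 without N31), and that of genes lower was 3627, with 2980 to 3793. The log2 fold change of Smarcb1, combined Myf5Cre against Snf5-null Myf5Cre, was -3.24 to -2.81 over the same fits. The term for Y-linked expression gave 1792 higher and 1774 lower, and higher genes made up 50.3% of its calls, against 44% in the fit reported. In a fit of all 22 libraries 50.6% of calls were higher, and the median log2 fold change of all genes was 0.228, against 0.061. Of 401 called genes named or listed, 201 kept their direction and call under every alternative that gave a value. With the term for Y-linked expression 154 lost their call, and Meox2 had a log2 fold change of 0. The loss was 81 in a fit of all 22 libraries, 9 with no filter and 52 with N31 and N33 summed. It was 13 to 61 with 1 library left out and 0 with RLE scaling. By DESeq2 it was 0 of the 388 genes that had an adjusted p. Genes to which DESeq2 gave no adjusted p were left out of that count, so they are not shown to keep their call. Of 78 counts over lists, 35 moved by over 1.5 times with the term for Y-linked expression, 18 in the fit of all 22 libraries, and 1 to 15 in the others. The cause was not tested. No paired analysis was possible because the labels give the groups no shared replicate numbers. Depth limits genes with a few counts per library, whose folds are given as bounds or ratios with intervals. The lists' medians are descriptions.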
